A study of Mus musculus with 20 samples.

Results

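The comparison set neural stem cells (NSC, 3 arrays) against embryonic stem cells (ESC, 3 arrays), 6 of the 20 mouse arrays of a study on making pluripotent cells from germline stem cells. Arrays were taken by their labelled cell type and every gene with a usable probe set was kept, 18193 in all. A gene was represented by 1 probe set, the one with the highest mean over the 20 arrays. The NSC were differentiated from embryonic stem cells that carry an Olig2-GFP reporter, by a published neural differentiation protocol with unpublished changes. The ESC were of the RW4 line and grew on mouse embryonic fibroblast feeders with leukemia inhibitory factor (LIF). The labels do not say whether the reporter ESC derive from RW4, and cell state, parental cells and culture cannot be told apart in this design. Fibroblasts from mid-gestation embryos of C3H mice (MEF, 3 arrays) are cited as another somatic cell type. Germline stem cells (GSC), the pluripotent cells made from them (gPS) and ESC-like cells (ESC_like) enter the choice of probe set, the shared estimate of spread and 1 plot. Their values are also cited for a few genes.

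Embryonic stem cells are held in the pluripotent state by a circuit of transcription factors around Oct4, Sox2 and Nanog, and LIF acting through Stat3 maintains it. Neural stem cells grown as adherent cultures self-renew in EGF and FGF, resemble radial glia, the progenitors of the embryonic brain, and can form neurons, astrocytes and oligodendrocytes. Sox2 works in both cell types, paired with Oct4 in ESC and with POU class III factors in neural progenitors.

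All values below are log2 intensities, so 1 unit is a 2-fold change, and a difference is NSC minus ESC. Calls required a difference of at least 2-fold and a limma p under 0.05 once adjusted across the table by the Benjamini-Hochberg method. Of the 18193 genes, 3898 were called (21.4%), 2070 higher in NSC (11.4%) and 1828 lower (10.0%), and the 3 values of each cell type did not overlap in any called gene. Where a lack of overlap is named below for a called gene, it therefore adds nothing to the call. The median difference over all genes was -0.10. Rises of at least 5 log2 units numbered 71 and falls of that size 91. In 617 of the genes called higher the ESC mean was under 5, and in 612 of those called lower the NSC mean was, a level near the array medians of 4.96 to 5.04. Readings that low can be mostly background, which leaves the size of those differences uncertain. The 10 called genes nearest the threshold differed by 1.0000 to 1.0024 log2 units and the 10 nearest below it by 0.9968 to 0.9999. Among called genes with several probe sets (2391), 442 had probe sets of opposite sign. Of the genes named below, Calcrl, Cnp, Dnmt3a, Dtx1, Fbln2, Fgfr1, Gnas, Hoxa4, Mbd2, Mcm10, Mnt, Nfix, Pax6, Smarca2, Smarcd2, Snai2 and Xist lost their call when the probe sets of a gene were averaged or when those of shared suffix (such as x_at and s_at) were left out. Of all named genes, 22 (20 of them called, Otx2, Dnmt3b, Dnmt3l and Apoe included) have only probe sets of shared suffix and could not be recomputed there. Arrays correlated at 0.994 to 0.996 within NSC, 0.993 to 0.996 within ESC and 0.897 to 0.900 between them, across all probe sets. The 3' minus 5' difference of the Actb control probe sets, a sign of RNA integrity, was 0.27 to 0.33 in NSC and 0.27 to 0.51 in ESC, and that of Gapdh was -0.27 to -0.23 and -0.09 to -0.02. Whether the Gapdh gap plays a part in any difference was not tested. Precision is limited by the number of arrays. The labels name no separate cultures, and the p-values then speak only of the spread among these samples, which may be technical.

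**Figure D1:**
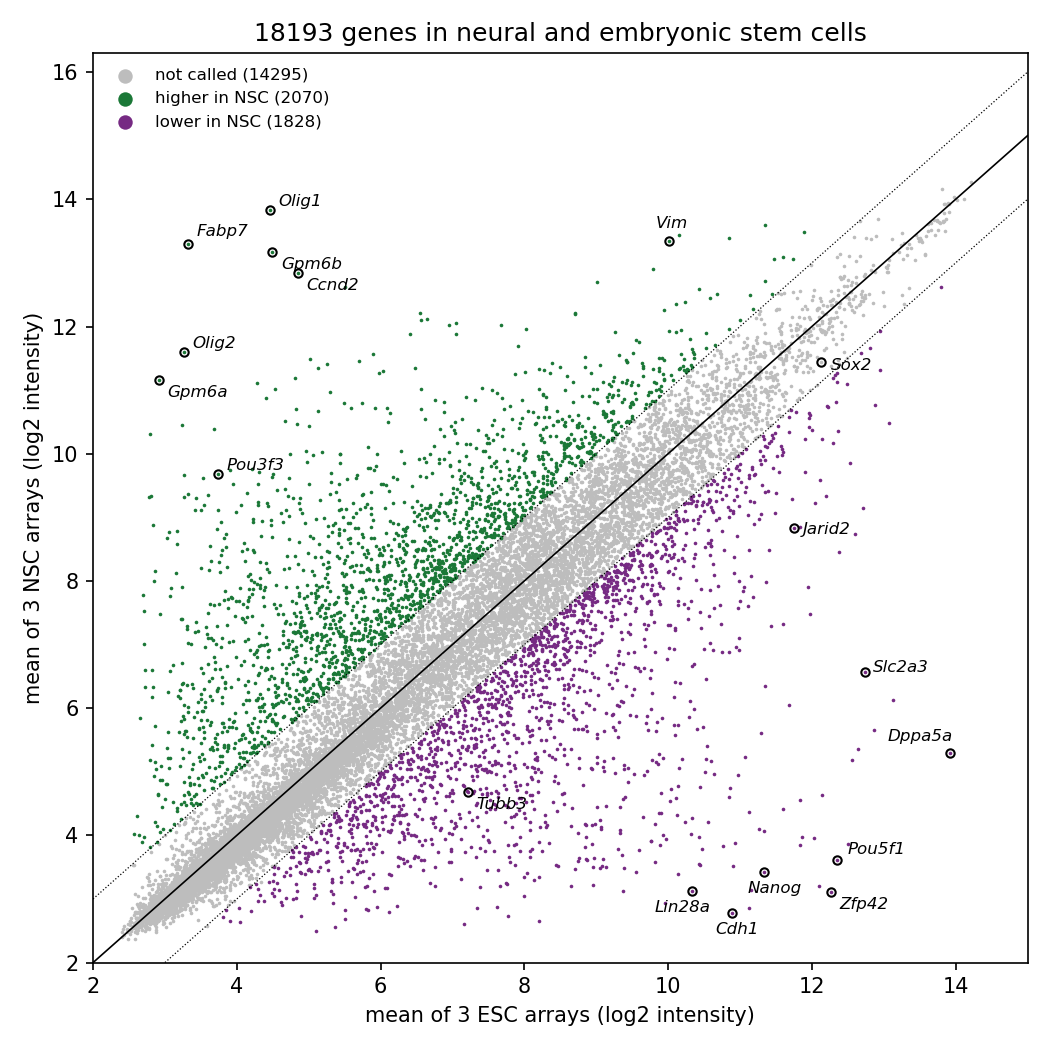
Each point is 1 of 18193 genes, placed by its mean over the 3 ESC arrays (horizontal) and over the 3 NSC arrays (vertical), both in log2 intensity. Genes called higher in NSC are green (2070), those called lower are purple (1828), and the dotted lines mark 2-fold. Fabp7 and Olig1 lie at the upper left, Zfp42 and Pou5f1 at the lower right, and Sox2 lies within the 2-fold lines at a high level in both.

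Transcripts of the pluripotency circuit other than Sox2 were far lower in the NSC. All 18 measured members of the pluripotency factor list were lower in NSC, with a median difference of -4.58 against -0.10 over all genes. Sox2 was not in this list and was not called, and its values are given below. Pou5f1, which encodes Oct4, read 12.45, 12.34 and 12.27 on the ESC arrays and 3.65, 3.58 and 3.60 on the NSC arrays, a difference of -8.74 ± 0.17 (SE, adjusted p = 1.55e-19). The NSC values lay close to the MEF mean of 3.12, and the groups did not overlap. Nanog, a homeodomain factor of the same circuit, read 11.36, 11.36 and 11.30 in ESC and 3.43, 3.27 and 3.58 in NSC (-7.92 ± 0.14 SE, adjusted p = 5.06e-20). Zfp42, the zinc finger gene known as Rex1, fell furthest of all genes on the array, from 12.29, 12.26 and 12.27 to 2.97, 3.19 and 3.15 (-9.17 ± 0.13 SE, adjusted p = 4.23e-21). The ESC mean of Zfp42, 12.27, was also called higher than its means in gPS (9.38) and ESC_like (9.89). In each of Pou5f1, Nanog and Zfp42 the NSC and ESC replicates lay close together and these cell types far apart.

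The other members fell by less or from a lower level. Nr0b1, a nuclear receptor gene, differed by -6.88 ± 0.15 (SE) and Sall4, a zinc finger factor that binds Oct4, by -6.77 ± 0.14 (SE). Klf4, one of the reprogramming factors, went from an ESC mean of 9.31 to 6.03 (-3.28 ± 0.25 SE), below its MEF mean of 9.70. Esrrb, an orphan nuclear receptor of the naive circuit, differed by -2.35 ± 0.16 (SE) on the probe set used, whose NSC values of 7.27 to 7.38 sat near the MEF mean of 7.15, and by up to -6.19 on its other probe sets. In NSC 9 of the 18 members had a mean under 5, and in ESC none did. Against MEF, where 17.0% of all genes were called, 3 of the 18 were higher in NSC and 4 lower. The NSC and MEF comparison uses the same NSC arrays as the main one.

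Genes that mark pluripotent cells without being core regulators moved with the listed factors. All 22 measured were lower in NSC, with a median of -5.51. Tdgf1, a co-receptor for Nodal, read 12.04, 12.18 and 12.09 in ESC and 3.10, 3.29 and 3.23 in NSC (-8.90 ± 0.19 SE, adjusted p = 5.09e-19). Dppa5a, an RNA-binding protein gene of ESC and germ cells, fell from a mean of 13.92 to 5.29 (-8.63 ± 0.13 SE). L1td1 (-8.06), the Oct4 target Fbxo15 (-7.89) and Dppa2 (-7.26) followed. None of these genes had overlapping values, and 12 of the 22 had an NSC mean under 5.

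Promoters of 4 genes are printed to show the sequence elements through which POU and Notch factors are known to act. They span from 250 bases before to 50 after 1 annotated start of each gene in RefSeq (GRCm38.p6), are written 5′ to 3′ on the gene's strand, and carry the element in capitals. Nanog (chr6:122707315-122707614, plus strand) holds the core of the Sox-Oct composite element, TTGTNATGC, on the opposite strand. Zfp42 (chr8:43306960-43307259, minus strand) and Gpm6a (chr8:54779184-54779483, plus strand) hold the octamer ATGCAAAT, which POU factors bind, also on the opposite strand. Lfng (chr5:140607091-140607390, plus strand) holds the RBPJ element TTCCCAC on the opposite strand.
Nanog: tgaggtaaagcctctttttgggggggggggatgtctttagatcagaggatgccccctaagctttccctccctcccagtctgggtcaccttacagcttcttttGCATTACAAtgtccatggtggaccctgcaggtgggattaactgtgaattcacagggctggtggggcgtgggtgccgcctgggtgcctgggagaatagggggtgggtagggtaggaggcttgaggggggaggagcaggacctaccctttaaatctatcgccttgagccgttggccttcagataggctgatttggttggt
Zfp42: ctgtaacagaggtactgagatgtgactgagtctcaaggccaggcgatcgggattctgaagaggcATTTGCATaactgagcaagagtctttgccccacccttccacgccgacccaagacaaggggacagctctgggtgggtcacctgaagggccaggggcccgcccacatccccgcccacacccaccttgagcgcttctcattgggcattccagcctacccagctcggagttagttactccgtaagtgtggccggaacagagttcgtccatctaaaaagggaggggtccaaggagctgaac
Gpm6a: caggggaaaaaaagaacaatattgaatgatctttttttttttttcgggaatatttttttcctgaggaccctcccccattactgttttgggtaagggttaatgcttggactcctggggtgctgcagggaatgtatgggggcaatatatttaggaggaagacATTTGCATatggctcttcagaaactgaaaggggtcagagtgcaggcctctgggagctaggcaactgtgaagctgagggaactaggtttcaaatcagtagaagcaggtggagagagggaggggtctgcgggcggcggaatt
Lfng: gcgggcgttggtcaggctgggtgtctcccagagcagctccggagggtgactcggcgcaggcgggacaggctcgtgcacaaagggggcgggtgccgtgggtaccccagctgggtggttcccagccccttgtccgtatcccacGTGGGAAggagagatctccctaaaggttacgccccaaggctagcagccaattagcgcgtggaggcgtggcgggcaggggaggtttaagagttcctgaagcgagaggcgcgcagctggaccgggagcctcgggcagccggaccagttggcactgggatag

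The share of promoters with each element was similar among genes called higher and called lower. Both strands were searched, and composite and octamer can share letters. Of 14452 tested genes with a promoter in the table, 0.616% held the composite core, against 0.623% of the genes called lower and 0.485% of those called higher. The octamer stood in 1.68% of tested genes, 1.80% of those called lower and 1.88% of those called higher, and the RBPJ element in 7.40%, 7.89% and 7.10%. Among the 13 pluripotency factors with a promoter, Nanog held the composite core, and Zfp42 and Zfp296 the octamer. The octamer was thus found before Zfp42, the gene with the largest fall, and before Gpm6a, one of the largest rises. A match describes letters in this window and not a bound site.

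The POU and Sox families changed member by member. Sox2 read high in both, at 11.48, 11.49 and 11.35 in NSC and 12.04, 12.17 and 12.15 in ESC, against a MEF mean of 4.79. The groups did not overlap, but the difference of -0.68 (95% interval -0.99 to -0.36, adjusted p = 7.32e-04) was under 2-fold and was not called. Pou3f3 (Brn1), a POU class III factor of neural progenitors, rose from 3.75, 3.65 and 3.83 to 9.71, 9.69 and 9.64 (5.94 ± 0.16 SE, adjusted p = 2.53e-17). Pou3f1 (Oct6), also of class III, read 5.83, 5.56 and 5.58 in ESC and 9.52, 9.63 and 9.69 in NSC (3.96 ± 0.24 SE, adjusted p = 1.31e-11). Pou3f4 (Brn4), chosen after its values were seen, differed by 2.84 ± 0.12 (SE). The NSC values of these 3 genes lay above every ESC value. Pou3f2 (Brn2) was not called: its NSC values of 6.11, 6.40 and 6.32 overlapped the ESC values of 6.10, 6.07 and 6.38 (0.09, 95% interval -0.22 to 0.40). Another Pou3f2 probe set differed by 1.23. Sox3, the closest relative of Sox2 on the X chromosome, rose by 3.53 ± 0.31 (SE) and Sox11, of the SoxC group, by 3.62 ± 0.22 (SE). Sox1, a marker of early neuroectoderm, was not called and read under 5 in both, at 3.94, 4.49 and 4.42 in NSC and 4.05, 4.08 and 4.63 in ESC.

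**Figure D2:**
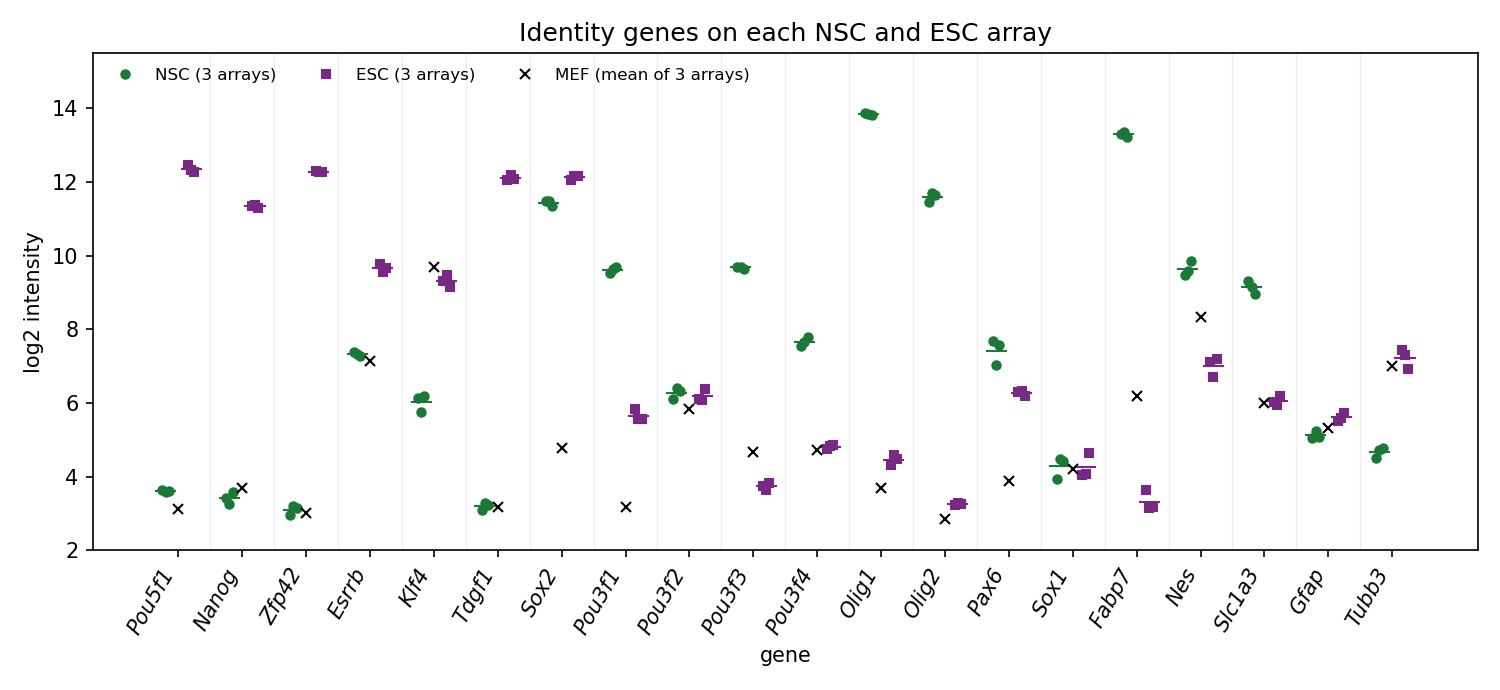
Log2 intensity (vertical) of 20 identity genes on each of 3 NSC arrays (green circles) and 3 ESC arrays (purple squares), with short lines at the group means and a cross at the mean of 3 MEF arrays. Pou5f1, Nanog, Zfp42 and Tdgf1 are high in ESC only, Sox2 is high in both, and Pou3f3, Olig1, Olig2 and Fabp7 are high in NSC only.

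Neural progenitor transcription factors were the counterpart. Of 24 measured, 18 were called higher in NSC, 1 lower and 5 were not called, with a median of 2.72. Olig1 and Olig2, basic helix-loop-helix factors of ventral progenitors and the oligodendrocyte lineage, were near the top of the whole array. Olig1 read 13.86, 13.83 and 13.81 in NSC and 4.32, 4.59 and 4.47 in ESC (9.38 ± 0.96 SE, adjusted p = 4.41e-08). Olig2 read 11.44, 11.69 and 11.64 against 3.23, 3.28 and 3.27 (8.33 ± 0.48 SE, adjusted p = 5.11e-12). The groups did not overlap. The spread shared in the fit is set by the gPS arrays, whose SD was 2.60 for Olig1 and 1.25 for Olig2, against 0.02 and 0.13 in NSC. The NSC line carries GFP as an Olig2 reporter, and whether the reporter touches the Olig2 reading was not tested.

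Nfia, a nuclear factor I gene of the switch to gliogenesis, rose by 5.89 ± 0.18 (SE) from a mean of 4.82 to 10.71. Nfix, of the same family, rose by 5.68 ± 0.18 (SE), but its 5 probe sets ranged from -0.20 to 7.54. Pax6, a master regulator of eye and forebrain progenitors, read 7.67, 7.03 and 7.57 in NSC and 6.30, 6.33 and 6.19 in ESC, a called rise of 1.15 ± 0.26 (SE, adjusted p = 8.96e-04) with probe sets from -0.08 to 1.17. The 1 gene called lower was Id4, an inhibitor of basic helix-loop-helix factors, at 5.15, 5.16 and 4.74 in NSC and 9.28, 9.20 and 8.84 in ESC (-4.09 ± 0.43 SE). Hes5, a Notch target of radial glia, was not called (5.29, 5.00 and 5.09 against 5.34, 5.40 and 5.02), and its other probe set differed by 1.09. Against MEF, 14 of the 24 were higher in NSC and 2 lower.

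Radial glia genes were among the largest rises. Of 24 effector genes, 17 were called higher, none lower and 7 were not called (median 2.53), and 17 were higher in NSC than in MEF, of which 12 were higher than in both. Fabp7, the brain fatty acid binding protein of radial glia, read 13.30, 13.36 and 13.23 in NSC and 3.65, 3.14 and 3.19 in ESC, the largest rise on the array (9.97 ± 0.23 SE, adjusted p = 1.55e-18). Gpm6b and Gpm6a, membrane proteins of the proteolipid family, rose by 8.68 ± 0.23 and 8.24 ± 0.11 (SE). None of the values of the 3 genes overlapped, and the ESC values all lay under 5. Ptprz1, a receptor phosphatase of glial progenitors, rose by 6.47 ± 0.14 (SE) and all its 3 probe sets by at least 6.44.

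Classical markers of NSC cultures moved less. Nes, the intermediate filament nestin, read 9.49, 9.59 and 9.85 in NSC and 7.10, 6.70 and 7.19 in ESC (2.65 ± 0.16 SE, adjusted p = 8.12e-12). Vim, which encodes vimentin, rose from 10.11, 9.99 and 9.93 to 13.36, 13.39 and 13.29 (3.34 ± 0.10 SE), and its MEF mean was 13.87. Slc1a3, the glutamate transporter GLAST, rose by 3.09 ± 0.17 (SE), with probe sets from 0.61 to 5.75. Prom1, which encodes the surface antigen CD133, was not called at 0.34 (95% interval -0.51 to 1.18), and stood above its MEF mean of 4.38 in both cell types. Msi1, an RNA-binding protein of neural progenitors, was not called either (-0.20), and another of its probe sets differed by 1.71.

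The list of brain matrix genes overlaps that of the radial glia effector genes, as Tnc stands in both. Its counts are therefore not independent of those given above for radial glia. Of 16 neural matrix genes and receptors, 9 were called higher and none lower (median 1.23). Tnc, which encodes tenascin-C, rose by 6.83 ± 0.20 (SE) to 11.20, 11.19 and 10.96, close to its MEF mean of 11.37. Bcan, which encodes the brain proteoglycan brevican, read 11.26, 11.40 and 11.80 in NSC and 4.88, 5.00 and 5.18 in ESC (6.46 ± 0.16 SE), with a MEF mean of 4.81. Ncan, the related neurocan gene, rose by 4.41 ± 0.25 (SE). Bcan was called higher in NSC than in MEF as well, and Tnc was not called against MEF. Tnc also read 8.33 in gPS and 10.04 in ESC_like, and its ESC mean of 4.28 was called lower than both.

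**Figure D3:**
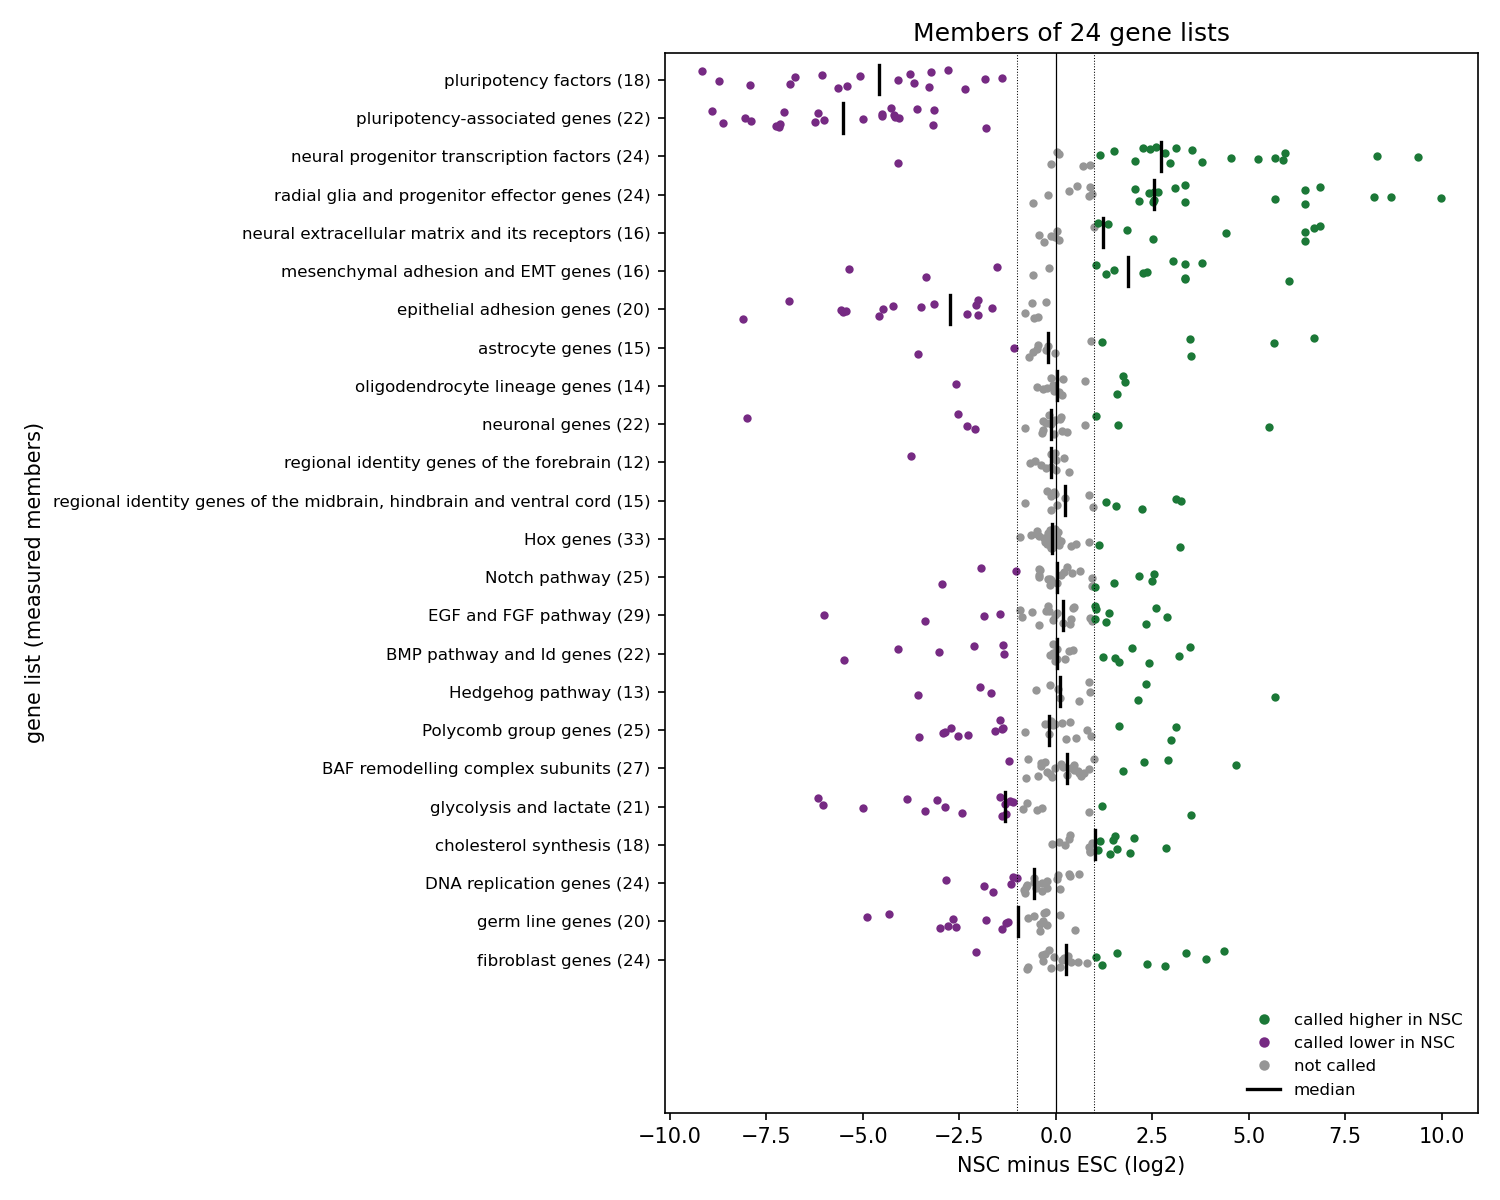
Each point is 1 measured gene, placed by its NSC minus ESC difference in log2 (horizontal) within its gene list (vertical, number of measured members in brackets), for 24 of the lists. Green points were called higher in NSC, purple points lower and grey points not called. Black bars are list medians, from -5.51 in the pluripotency-associated genes to 2.72 in the neural progenitor transcription factors, and dotted lines mark 2-fold.

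Genes of differentiated neural cells were divided. Among 15 astrocyte genes 5 were called higher, 2 lower and 8 not called (median -0.20). Gfap, the filament of mature astrocytes, was not called, at 5.05, 5.24 and 5.07 in NSC and 5.51, 5.61 and 5.72 in ESC (-0.49, 95% interval -0.74 to -0.24). Sparcl1, a matrix protein of astrocytes, read 10.25, 10.39 and 10.53 in NSC and 3.67, 3.59 and 3.81 in ESC (6.70 ± 0.14 SE, adjusted p = 4.71e-19). Mlc1, an astrocyte membrane protein, rose by 5.66 ± 0.18 (SE) and Aldoc, the brain aldolase, by 3.50 ± 0.35 (SE). Aqp4, the water channel of astrocyte endfeet, was not called and read under 5 in both (-0.01). Apoe, the apolipoprotein of astrocytes, had an NSC mean of 9.14 and read 12.79, 12.65 and 12.67 in ESC (-3.56 ± 0.11 SE).

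Of 14 oligodendrocyte lineage genes 3 were called higher, 1 lower and 10 not called (median 0.02), a share called near the 21.4% of all genes. Nkx2-2, a factor of oligodendrocyte precursors, rose by 1.78 ± 0.15 (SE) but only to 4.64 to 5.02. The myelin enzyme genes Ugt8a (1.73 ± 0.21 SE) and Cnp (1.59 ± 0.19 SE) rose, and Myrf, a regulator of myelination, fell by 2.58. The myelin protein gene Mog read under 5 in both cell types and was not called.

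Of 22 neuronal genes, 3 were called higher, 4 lower and 15 not called (median -0.11). The 3 higher genes, Map2 among them, were also called higher in NSC than in MEF. Tubb3, the neuronal tubulin, read 4.51, 4.73 and 4.79 in NSC and 7.43, 7.29 and 6.93 in ESC (-2.54 ± 0.17 SE, adjusted p = 3.99e-11). Stmn2, a microtubule regulator of growing axons, read 3.14, 2.86 and 3.44 against 11.21, 11.15 and 11.10 (-8.01 ± 0.16 SE, adjusted p = 2.6e-19), and its MEF mean was 9.93. The neurofilament genes Nefl (-2.31) and Ina (-2.08) were also lower in NSC. These 4 genes, used as markers of neurons, were thus higher in the ESC, with no overlap. Map2, a dendritic microtubule protein also made by glial progenitors, read 10.67, 10.88 and 10.45 in NSC and 5.17, 5.43 and 4.79 in ESC (5.54 ± 0.23 SE). Dcx, a marker of migrating neuroblasts, was under 5 in both cell types and not called.

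Regional genes of the forebrain mostly read low, with 8 of 12 under 5 in both cell types, while some of the hindbrain rose. Of the 12 none was higher, Otx2 was lower (8.03, 8.08 and 7.93 in ESC, 4.46, 4.12 and 4.23 in NSC, -3.75 ± 0.32 SE) and 11 were not called. Otx2 also serves the primed pluripotent state. Its only probe set is of shared suffix. Of 15 genes of midbrain, hindbrain and ventral cord, 5 were higher and none lower, and 7 read under 5 in both cell types. Only 2 of the 15 were called higher in NSC than in both ESC and MEF. The Iroquois factors Irx3 (3.25 ± 0.21 SE) and Irx5 (3.11 ± 0.15 SE), Egr2, a gene of hindbrain segments (2.23 ± 0.24 SE), and En2, a factor of the mid-hindbrain (1.55 ± 0.17 SE), rose. Egr1, a relative of Egr2 given with the immediate early genes below, rose too. Whether the Egr2 rise reflects region was not tested. Among 33 Hox genes 31 were not called, 1 was lower without NSC replicate 2, and 21 had means under 5 in both cell types (median -0.09). Hoxa2, the most anterior Hox gene of the hindbrain, read 6.47, 6.36 and 5.95 in NSC and 2.96, 3.12 and 3.07 in ESC (3.21 ± 0.14 SE), and Hoxa4 differed by 1.12 ± 0.15 (SE). Hoxa5, chosen after its values were seen, was not called on the probe set used (0.09), and its other probe set differed by 4.59.

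The Notch pathway, which keeps radial glia undifferentiated, changed in single members. Of 25 measured, 5 were called higher, 3 lower and 17 not called (median 0.04). The receptor Notch1 read 9.51, 9.70 and 9.77 in NSC and 7.05, 7.25 and 7.06 in ESC (2.54 ± 0.25 SE). Lfng, a glycosyltransferase that tunes Notch receptors, rose by 2.14 ± 0.21 (SE), and Hes6, a Hes family member that antagonises Hes1, by 2.49 ± 0.20 (SE). Rbpj, the DNA-binding partner of activated Notch, fell from 10.06, 10.10 and 10.03 to 8.05, 8.14 and 8.15 (-1.95 ± 0.10 SE), and Dtx1, a ubiquitin ligase of the pathway, differed by -2.95. The canonical target Hes1 was not called, at 8.05, 8.16 and 7.82 against 8.12, 7.89 and 7.90. Notch1 and its modifier were thus higher, while neither Hes1 nor Hes5 was called.

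EGF and FGF, the growth factors of NSC culture, act through receptors that lead to Erk. Of 29 members, 8 were called higher, 4 lower and 17 not called (median 0.18), and the number higher was 4 with averaged probe sets. Egfr read 7.94, 8.13 and 8.10 in NSC and 6.59, 6.55 and 7.09 in ESC (1.31 ± 0.14 SE), with 7 probe sets from -0.26 to 5.80. The receptor Fgfr1 rose by 1.37 ± 0.20 (SE) and the ligand Fgf1 by 2.88 ± 0.15 (SE). The Erk feedback genes Spry1, a Sprouty inhibitor (2.59 ± 0.21 SE), and Dusp6, an Erk phosphatase (2.34 ± 0.14 SE), rose as well. Fgf4, the autocrine ligand of ESC and a target of Oct4 and Sox2, read 10.14, 10.02 and 9.74 in ESC and 3.42, 4.65 and 3.77 in NSC (-6.02 ± 0.22 SE). Erbb3, a neuregulin receptor, fell by 3.40.

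The labels name LIF for the ESC culture and not for the NSC. Whether LIF plays a part in the differences of its pathway was not tested. Of 15 pathway members 2 were called higher, 3 lower and 10 not called (median -0.09). The 3 lower genes are targets of Stat3. Socs3, its feedback inhibitor, read 10.11, 10.35 and 10.39 in ESC and 5.89, 5.90 and 5.78 in NSC (-4.43 ± 0.13 SE, adjusted p = 1.21e-16), and the kinase genes Pim1 (-3.12) and Pim3 (-2.99) followed. Lifr, the LIF receptor, was not called (0.16, 95% interval -0.16 to 0.48) and read over 9 on all 6 arrays. Jak2, a kinase of the pathway, rose by 2.64 ± 0.20 (SE).

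The BMP pathway, which works with LIF in ESC and promotes astrocytes in NSC, changed in both directions. Of 22 members 7 were called higher, 6 lower and 9 not called (median 0.04), and the number higher was 4 with averaged probe sets. Bmp4, the ligand, read 10.09, 10.08 and 9.94 in ESC and 4.21, 4.77 and 4.62 in NSC (-5.50 ± 0.30 SE). Of the targets, Id1 (-3.04), Id4 (-4.09) and the inhibitory Smads Smad6 (-2.11) and Smad7 (-1.38) fell. The signal-relaying Smads Smad5 (3.49 ± 0.17 SE) and Smad1 (1.98 ± 0.17 SE) and the receptor Bmpr2 (3.18 ± 0.13 SE) rose.

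In the Hedgehog pathway, the ventralising signal of the neural tube, 3 of 13 members were called higher, 3 lower and 7 not called (median 0.10). The target genes Gli1 (4.28, 4.23 and 4.39 in NSC, 7.75, 8.04 and 7.79 in ESC, -3.56 ± 0.22 SE) and Ptch1 (-1.95 ± 0.20 SE) and the effector Gli2 (-1.69 ± 0.20 SE) fell. The co-receptor genes Gas1 (12.17, 12.23 and 12.25 against 6.56, 6.52 and 6.56, 5.67 ± 0.14 SE) and Cdon (2.13 ± 0.16 SE) and the transducer Smo (2.35 ± 0.27 SE) rose. Gas1 had probe sets from -0.03 to 5.67. The ligand Shh was not called, at 4.84 to 5.08 in NSC and 4.96 to 5.24 in ESC.

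Adhesion genes of epithelial cells fell and most of those of mesenchymal cells rose. Of 20 epithelial adhesion genes 15 were called lower, none higher and 5 were not called (median -2.74). Cdh1, which encodes E-cadherin, read 10.89, 10.98 and 10.81 in ESC and 2.48, 2.67 and 3.19 in NSC (-8.11 ± 0.23 SE, adjusted p = 4.83e-17). The desmosome genes Pkp2 (-6.91), Dsg2 (-5.52) and Dsp (-5.45) and the adhesion molecule Epcam (-5.56) fell with it. Cdh2, which encodes N-cadherin, the cadherin of neuroepithelium, read 10.47, 10.46 and 10.19 in NSC and 7.18, 7.08 and 6.79 in ESC (3.35 ± 0.18 SE, adjusted p = 1.78e-12).

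Of 16 mesenchymal adhesion genes 11 were called higher, 3 lower and 2 not called (median 1.87). Cd44, a hyaluronan receptor of glial progenitors, rose by 6.05 ± 0.22 (SE), with 4 probe sets from -0.25 to 6.05, and Zeb1, a repressor of Cdh1, by 3.77 ± 0.17 (SE). The calcium-binding protein gene S100a6 (-5.35), the fibronectin gene Fn1 (-3.37) and the zinc finger factor Snai2 (-1.52) were lower in NSC. These 3 were all high in MEF, at 13.67, 12.49 and 11.35. Against MEF the mesenchymal list was lower in 9 members and higher in 1. Among 18 laminins and basement membrane genes 5 were lower, led by Nid1 (-3.67), Nid2 (-3.54) and Lama1 (-3.52), and 2 higher. Among lamins and intermediate filaments, the simple keratins Krt8 (-3.17) and Krt18 (-4.21) fell, and Vim and Nes were the 2 called higher of 15.

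Enzymes that set DNA methylation were among the genes that fell. Of 11 enzymes and readers of DNA methylation 5 were called lower, 1 higher and 5 not called (median -0.87), and the number lower was 3 with averaged probe sets or without those of shared suffix. Dnmt3l, a cofactor of the de novo methyltransferases, read 11.68, 11.59 and 11.54 in ESC and 4.81, 4.40 and 4.05 in NSC (-7.18 ± 0.17 SE, adjusted p = 3.3e-18). The methyltransferase gene Dnmt3b fell by 4.38, and Tet1, which oxidises methylcytosine, from a mean of 11.06 to 7.91 (-3.15 ± 0.14 SE), still above its MEF mean of 4.14. Dnmt3a differed by -1.89 ± 0.28 (SE), but its 5 probe sets ranged from -1.89 to 3.96 and averaged 0.55. The 1 called higher, the methyl-CpG binding gene Mbd2 (1.04 ± 0.14 SE), was not called after quantile normalization, with the mean of its probe sets or without NSC replicate 3.

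Polycomb proteins silence developmental genes in exchangeable complexes. Of 25 members 10 were called lower, 3 higher and 12 not called (median -0.18). Cbx7, the chromodomain subunit of ESC, read 8.77, 8.90 and 8.62 in ESC and 5.29, 5.19 and 5.18 in NSC (-3.54 ± 0.17 SE). The PRC2 accessory genes Jarid2 (-2.92) and Mtf2 (-2.87), the PRC2 core gene Eed (-2.53) and the PRC1 gene Phc1 (-2.73) fell too. Bmi1, a PRC1 subunit required for NSC self-renewal, read 10.73, 10.74 and 10.63 in NSC and 7.76, 7.80 and 7.58 in ESC (2.99 ± 0.23 SE), and Phc2, a paralogue of Phc1, rose by 3.12 ± 0.17 (SE). Phc1 and Phc2 thus moved in opposite directions, with no overlap in either.

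The BAF chromatin remodelling complex also exchanges subunits between ESC and neural progenitors. Of 27 subunits 4 were called higher, 1 lower and 22 not called (median 0.28), a share called below the 21.4% of all genes. The differences are thus those of single subunits. Smarcc2 (BAF170) read 7.80, 7.57 and 7.65 in NSC and 5.45, 5.55 and 5.16 in ESC (2.29 ± 0.15 SE, adjusted p = 3.98e-11). Its paralogue Smarcc1 (BAF155), the subunit of the ESC complex, was not called, at 10.13, 9.99 and 10.39 against 10.62, 10.56 and 10.45 (-0.37, 95% interval -0.66 to -0.09). Smarcd3 (BAF60C) rose by 2.90 ± 0.27 (SE), while Smarcd2 fell by 1.22. The ATPase gene Smarca2 (BRM) rose by 4.66 ± 0.17 (SE), and its other probe set by 0.26.

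**Figure D4:**
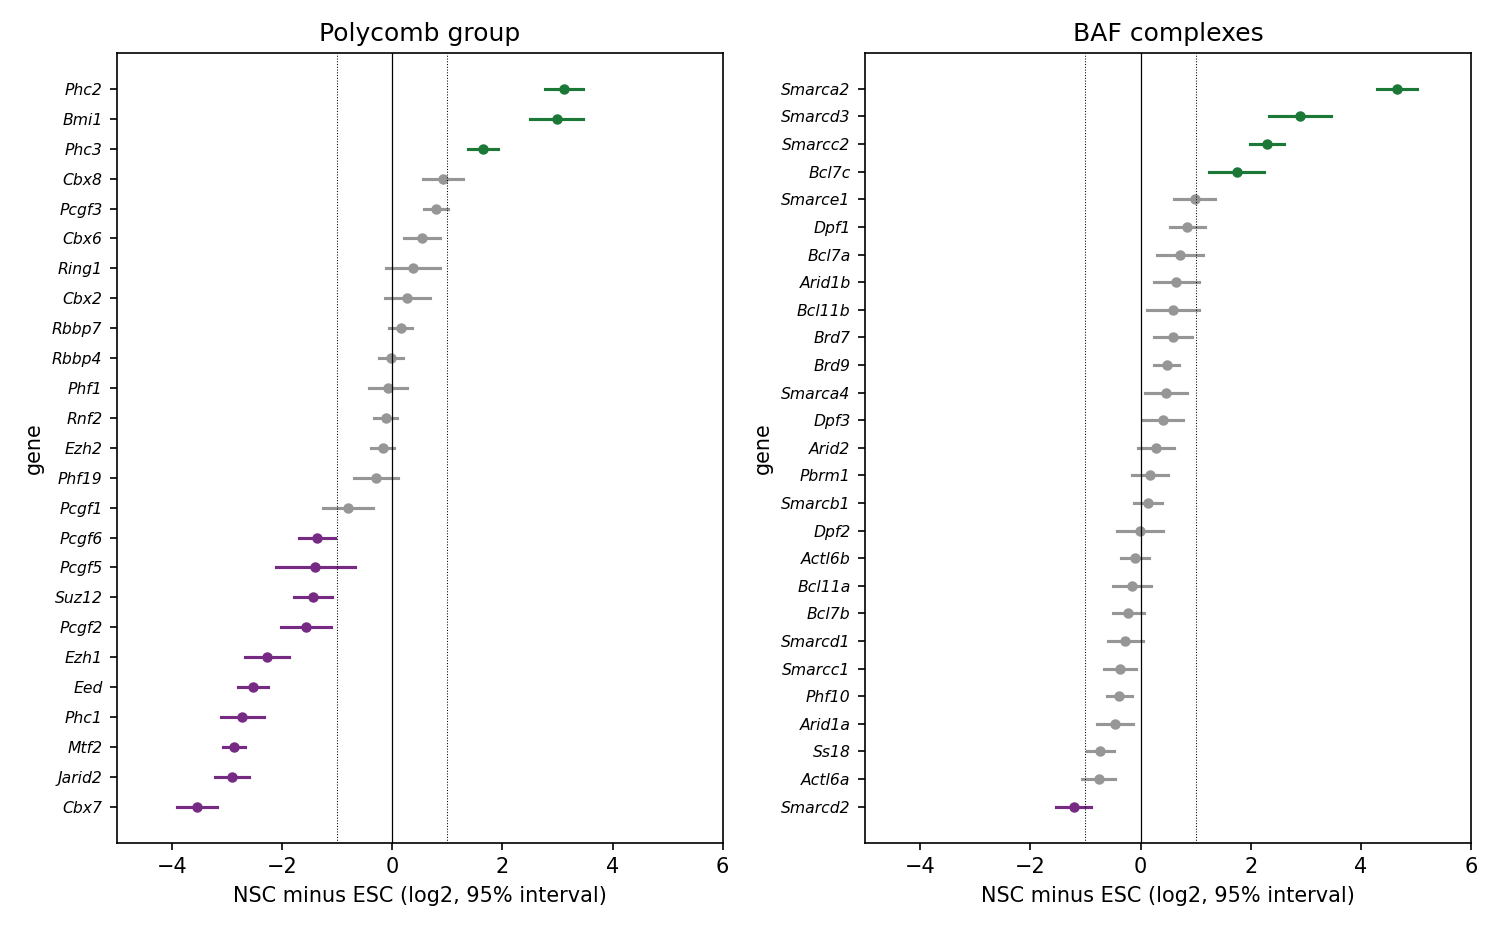
NSC minus ESC difference in log2 (horizontal, points) with its 95% interval (bars) for 25 Polycomb group genes (left) and 27 BAF subunit genes (right), ordered by size. Green marks genes called higher in NSC, purple lower and grey not called, and dotted lines mark 2-fold. Phc2, Bmi1 and Smarca2 stand at the top of their panels, and Cbx7 and Smarcd2 at the bottom.

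The Lin28 group of oncofetal RNA-binding genes fell in part. Of 7 measured 3 were called lower, 1 higher and 3 not called. Lin28a, which blocks let-7 maturation, read 10.34, 10.49 and 10.17 in ESC and 3.31, 2.90 and 3.15 in NSC (-7.21 ± 0.19 SE, adjusted p = 2.27e-17). Trim71, itself a let-7 target, fell by 5.53, and Igf2bp1 differed by -1.12. Hmga2, a let-7 target and a chromatin protein of young NSC, rose by 1.16 ± 0.20 (SE).

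In the Myc family, Mycn fell from 9.38, 9.29 and 9.10 to 5.79, 5.47 and 5.72 (-3.60 ± 0.26 SE), and Myc rose by 1.40 ± 0.28 (SE). The Myc antagonist genes Mxd4 (4.06 ± 0.16 SE) and Mnt (-1.59 ± 0.18 SE) moved apart, and 5 of 9 members were not called.

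D-type cyclins rose furthest among the cell cycle genes. Of 19 genes of the G1 phase 8 were called higher, 4 lower and 7 not called (median 0.90), and the number lower was 2 without NSC replicate 3 or without ESC replicate 1. Ccnd2, the cyclin D2 gene, read 12.89, 12.95 and 12.68 in NSC and 4.93, 4.58 and 5.05 in ESC (7.99 ± 0.19 SE, adjusted p = 4.85e-18), and Ccnd1 read 12.04, 12.26 and 11.87 against 7.07, 7.17 and 6.92 (5.00 ± 0.20 SE). Ccnd2 was also high in MEF, with a mean of 12.20, and read 11.02 in GSC, 10.36 in ESC_like and 8.56 in gPS. The ESC were called lower than the other pluripotent cells for Ccnd2, by -3.71 against gPS and -5.51 against ESC_like. Its low level was thus not shared by all pluripotent cells of the study. The cyclin-dependent kinase inhibitor genes Cdkn2c (3.99 ± 0.19 SE) and Cdkn1a (3.38 ± 0.16 SE) rose, and the kinase gene Cdk6 fell by 2.01. Of 24 DNA replication genes 6 were called lower and none higher (median -0.56), led by the origin recognition gene Orc1 (-2.84), the replication factor Mcm10 (-1.85) and the licensing factor Cdt1 (-1.63). Pcna, the sliding clamp, was not called, with all 6 values between 13.26 and 13.33. The share of cycling cells was not measured, and in such bulk samples fewer cells of a type and less RNA per cell cannot be told apart.

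Transcripts of glycolysis were lower in NSC. Of 21 genes of glycolysis and lactate 14 were called lower, 2 higher and 5 not called (median -1.31). The number lower was 9 without probe sets of shared suffix. The glucose transporter genes Slc2a3 (12.78, 12.71 and 12.71 in ESC, 6.48, 6.54 and 6.67 in NSC, -6.17 ± 0.18 SE) and Slc2a1 (-3.86 ± 0.14 SE) fell. Pfkp, a phosphofructokinase gene (-6.02), Pdk1, a kinase that holds pyruvate out of mitochondria (-4.99), and Hk2, a hexokinase gene (-3.40), fell too. Isoforms moved apart: Pfkm, the muscle phosphofructokinase gene, rose by 1.20 ± 0.15 (SE), as Aldoc had.

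Cholesterol synthesis genes moved the other way. Of 18 genes 9 were called higher, none lower and 9 not called (median 1.02). Hsd17b7 (2.85 ± 0.14 SE), Sc5d (2.02 ± 0.10 SE) and Dhcr7 (1.91 ± 0.26 SE), enzymes of the later steps, and Hmgcs1 (1.59 ± 0.16 SE) and Sqle (1.54 ± 0.17 SE), of the earlier ones, rose. Serine synthesis genes Phgdh (1.64 ± 0.15 SE) and Psat1 (1.59 ± 0.19 SE) and the folate enzyme gene Aldh1l2 (2.46 ± 0.30 SE) rose, while the glycine cleavage gene Gldc fell by 2.17. Of the 14 serine and one-carbon enzymes 9 were not called.

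Germ line genes read low in NSC. Of 20 measured 10 were called lower and none higher (median -0.98), and all 20 had an NSC mean under 5. Sycp3, of the meiotic chromosome axis, read 9.13, 9.53 and 9.34 in ESC and 4.48, 4.33 and 4.51 in NSC (-4.89 ± 0.23 SE). Tdrd12, of the piRNA pathway, fell by 4.32. The germ cell genes Ddx4 (-3.01), Mael (-2.80) and Stk31 (-2.67) had ESC means of only 5.83, 5.37 and 5.51.

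Imprinted genes, expressed from 1 parental allele, moved in both directions. Of 19 paternally expressed genes 7 were called higher, 2 lower and 10 not called, and of 19 maternally expressed genes 4 higher, 8 lower and 7 not called. Nap1l5 read 11.50, 11.38 and 11.18 in NSC and 5.25, 5.18 and 4.95 in ESC (6.23 ± 0.15 SE), and Nnat, a small membrane protein of developing brain, rose by 4.38 ± 0.41 (SE). Peg12 (3.87 ± 0.32 SE) and Mest (3.12 ± 0.12 SE) rose as well. Slc38a4, an amino acid transporter gene, fell by 6.03. Of the maternal genes, the long RNAs Rian (-3.69) and Meg3 (-3.24), the receptor gene Igf2r (-2.96) and the growth inhibitor Phlda2 (-3.89) fell. Gnas rose by 2.15 ± 0.13 (SE), with 5 probe sets from -0.24 to 2.15, and the number of maternal genes higher was 2 without ESC replicate 3. Arrays do not tell the alleles apart.

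Markers of other cell types were read to check what else the samples may hold. Of 24 fibroblast genes 8 were higher in NSC than in ESC, 1 lower and 15 not called (median 0.26), and all 24 were lower in NSC than in MEF. Their mean level per array was 5.94 to 5.99 in NSC, 5.06 to 5.37 in ESC and 10.75 to 10.83 in MEF. The collagen gene Col1a1 read 4.76, 5.04 and 4.73 in NSC and 5.01, 5.04 and 4.18 in ESC, against a MEF mean of 11.99, so this defining marker was near the overall median in both. The surface antigen gene Thy1 (8.58, 8.32 and 9.20 in NSC, 4.37 ± 0.25 SE), Fbln2 (3.88 ± 0.17 SE) and Prrx1 (3.38 ± 0.31 SE) were the leading members higher in NSC, each under its MEF mean of 10.40, 11.12 and 10.82. Of 14 macrophage genes 13 were not called and Cd68 fell by 3.52, with list means of 4.34 to 4.41 in NSC and 4.59 to 4.81 in ESC. Of 12 endothelial genes 4 were lower and 1 higher, led by Pecam1 (-3.73), an adhesion molecule that ESC also carry. The part of other cells in any difference was not tested.

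Lists of other lineages are read against the 78.6% of all genes that were not called. Of 16 mesoderm genes 15, of 16 endoderm genes 13, of 12 trophoblast genes 8, of 11 neural crest genes 3 and of 14 primed epiblast genes 4 were not called. Among 12 trophoblast genes Tfap2c, which ESC and germ cells also express, fell from 10.13, 10.17 and 10.12 to 3.44, 3.23 and 3.49 (-6.75 ± 0.51 SE), and its paralogue Tfap2a rose by 2.38 ± 0.17 (SE). Among 11 neural crest and Schwann cell genes 3 were higher, led by the endothelin receptor gene Ednrb (5.69 ± 0.21 SE), and 5 lower, led by the melanosome gene Pmel (-5.68 ± 0.20 SE). The crest factor Sox10 was not called (-0.12). Of 14 primed epiblast genes 4 were higher and 6 lower, the latter led by Dnmt3b, Otx2 and Grhl2 (-3.49).

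**Figure D5:**
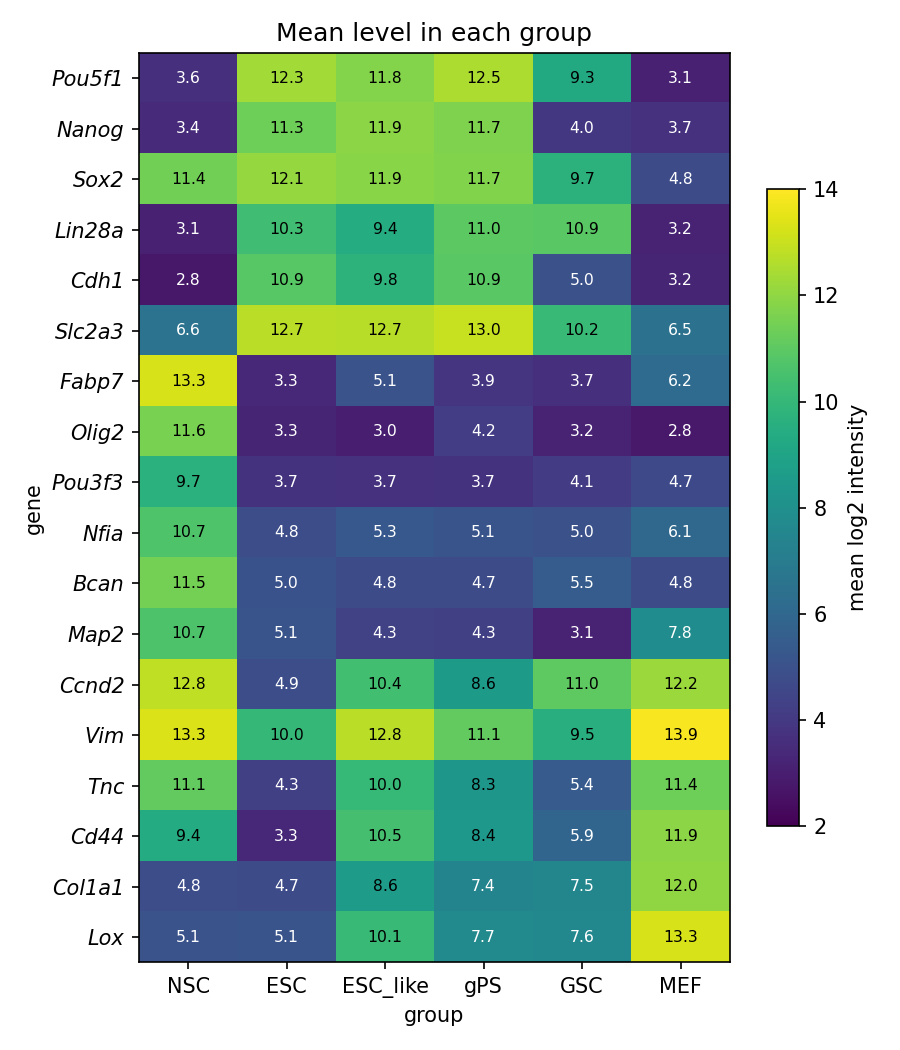
Mean log2 intensity (colour and number) of 18 genes (rows) in the 6 cell groups (columns: 3 NSC, 3 ESC, 3 ESC_like, 5 gPS, 3 GSC and 3 MEF arrays). Fabp7, Olig2, Pou3f3, Nfia and Bcan are highest in NSC, and Vim and Ccnd2 are also high in MEF. Ccnd2 is high in GSC and ESC_like too. Col1a1 and Lox are high in MEF and low in NSC and ESC.

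Xist, the RNA that coats the inactive X chromosome, read 8.37, 8.75 and 8.54 in ESC and 5.35, 5.36 and 5.11 in NSC (-3.28 ± 0.25 SE) on a probe set of shared suffix, and was not called without such probe sets (-0.24). The other 5 genes of this list, all on the Y chromosome, were not called, and the list's number lower was 2 without NSC replicate 2 or without ESC replicate 3. Of 16 stress and immediate early genes 5 were higher in NSC, among them Jun (3.53 ± 0.40 SE), Egr1 (2.68 ± 0.31 SE) and Fos (2.66 ± 0.21 SE), and 6 were lower, led by Trib3 (-2.15 ± 0.44 SE), a gene of the integrated stress response. Whether culture or harvest plays a part in these was not tested. Of 14 interferon-stimulated genes 1 was higher (Ifit2, 3.08 ± 0.14 SE) and 4 lower, led by Ifitm1 (-7.28 ± 0.39 SE), which also marks ESC and germ cells. Of 11 genes of antigen presentation 9 were not called and 2 were higher, 0 without NSC replicate 1 and 1 without NSC replicate 2 or without ESC replicate 3.

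Beyond the genes above, the 15 largest rises included the adhesion molecule Chl1 (7.51 ± 0.25 SE, probe sets from 0.14 to 7.51), the synaptic pentraxin Nptx1 (7.22 ± 0.19 SE), the heparin-binding growth factor Ptn (7.11 ± 0.31 SE), the glutamate receptor Grm5 (6.53 ± 0.12 SE), the receptor Calcrl (6.52 ± 0.19 SE, probe sets from -0.17 to 6.52) and the metalloprotease Adam12 (6.50 ± 0.22 SE). Ptn read 12.54, 12.90 and 12.44 in NSC and 5.85, 5.51 and 5.17 in ESC, and Grm5 9.17, 9.44 and 9.34 against 2.74, 2.91 and 2.70. The 15 largest falls included the galectin Lgals3 (12.55, 12.49 and 12.47 in ESC, 4.02, 3.41 and 4.14 in NSC, -8.64 ± 0.17 SE), Morc1, an ATPase of germ line transposon silencing (-8.26 ± 0.14 SE), the zinc finger gene Zfp982 (-7.99 ± 0.17 SE), the fatty acid binding protein Fabp3 (-7.51 ± 0.20 SE), Lrrc34 (-7.39 ± 0.20 SE) and the lipid phosphatase Mtm1 (-7.38 ± 0.15 SE, probe sets from -7.44 to 0.61). Fabp7 and Fabp3, of the same protein family, thus stood at opposite ends. Lgals3 was also high in MEF, at 11.93, and Grm5 was dim in MEF, at 2.78.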

How the data were processed

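The 45101 probe sets of each Affymetrix array carry log2 intensities that the authors deposited in the series table. Per the submitters' processing notes the tool was RMA, without a version, and the labels do not say whether it was run on all arrays at once. RMA corrects background, normalizes quantiles and summarises probes, so a shift shared by most genes would be removed. Control probe sets (64), probe sets with several symbols (932) and with none in the probe table (9160) were left out, which left 34945. Symbols were updated through gene identifiers for 34741 of them. The 18193 genes, 9010 with several probe sets, were fitted with limma 3.58.1 in R 4.3.3 (lmFit, eBayes) with 1 mean for each of 6 groups over all 20 arrays and no covariate. Intervals are at 95%. Tables were made with pandas 2.3.3 and numpy 2.4.6 under Python 3.11.15, and figures with matplotlib 3.10.9.

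The comparison, the 45 gene lists and the alternatives were chosen with earlier results of these data known. Genes named with values were 26 fixed genes, up to 5 called members of each list and direction with the largest differences, up to 3 uncalled members with the smallest differences, and the 15 genes at either end of the table. Pou3f4 and Hoxa5 were named after their values were seen. Promoters are from RefSeq (GRCm38.p6), matched by symbol for 14452 tested genes. Alternatives were other normalizations, array weights, other sample sets, variance models, thresholds and filters, averaged probe sets, probe sets without a shared-target suffix (x_at, s_at or a_at) alone, every probe set tested singly, the replicate number as a block, and each NSC and ESC array left out in turn. The fit was tested on simulated data.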

Additional observations from a re-analysis of the deposited data

How the results depend on the processing

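The number of genes called was 3899 when fitted with the 6 NSC and ESC arrays alone, 3896 after quantile normalization, 3892 with each array centred on its median and 3899 with a replicate block. Whether the replicate numbers pair the samples is not known, and weak correlations of same-numbered deviations (0.136, -0.097 and 0.080) cannot settle it. NSC replicates 1 and 3 correlated best with the ESC replicate of the same number, and NSC replicate 2 with ESC replicate 3. The block is given only here. Leaving out 1 array gave 3888 to 3935 calls, 1995 to 2114 higher and 1786 to 1917 lower. With probe sets tested singly 6858 were called (3911 higher, 2947 lower), with a 4-fold minimum 1533 (838 and 695), and with no fold minimum 8615 (4003 and 4612). The other alternatives gave 3235 to 3916 calls, the lowest with averaged probe sets. Averaging probe sets moved list counts to 1 higher in the LIF pathway, antigen presentation and endoderm, 2 higher in maternally expressed imprinted genes, 0 lower in BAF subunits and 1 lower in the Myc family. Leaving out probe sets of shared suffix moved them to 1 lower in astrocyte and mesenchymal genes, 3 lower in laminins, 2 lower and 0 higher in endothelial genes, 0 lower in forebrain genes, 1 higher in serine enzymes, the Myc family and endoderm, 2 higher in maternally expressed imprinted genes and 3 higher in stress genes.

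Signs turned for some genes that were not called. Aqp4 was 0.120 after quantile normalization, 0.291 with averaged probe sets and -0.119 to 0.071 with 1 array left out. Dcx was 0.065, 0.317 and -0.220 to 0.081 in these settings, and Lox was 0.048, 0.023 and -0.215 to 0.087. Hes1 was -0.003 and Pcna -0.018 after quantile normalization. Hes5 was 0.485 and Msi1 0.569 with averaged probe sets. With 1 array left out, Hes1 ranged from -0.037 to 0.133, Sox1 from -0.074 to 0.221, Col1a1 from -0.186 to 0.245 and Hoxa5 from -0.031 to 0.194. Among called genes, Dnmt3a turned to 0.554 with averaged probe sets, and Calcrl and Nfix to -0.167 and -0.197 without probe sets of shared suffix. Dim signal limits the size of differences, and probe choice the calls of single genes. The cause of these turns was not tested.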
